A study of Mus musculus with 23 samples.

Results

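The neighbourhood of Nr5a2 on mouse chromosome 1 was described through the NR5A2-bound regions that lie closest to the gene itself. Members were all listed regions with a midpoint between 136742562 and 137060448 (mm10), which is within 100 kb of the gene span (136842562 to 136960448), and 9 of 16958 regions met this rule. ATAC-seq, a method that marks open DNA with a transposase, gave accessibility in 8-cell embryos. The maternal-zygotic (mz) series consisted of 8 heterozygous (mz_NrHet) and 13 knockout (mz_NrKO) embryos, each its own library, all analysed directly after collection. The labels do not state if heterozygotes had Nr5a2 from the oocyte. The inducible series consisted of 1 pool without tamoxifen (iNrKO_minus_Tam_Nrpp) and 1 pool with it (iNrKO_plus_Tam_NrKO). Both inducible pools were collected as early 2-cell embryos, at 30 h after the hCG injection, and spent 45 h in culture. The treated pool had 750 nM 4-hydroxytamoxifen for the first 24 h. The strain, the targeted alleles and the recombinase that acts in the inducible embryos are not given in the sources used here. The deposited values are 1 merged RPKM per group and region, so the variation from embryo to embryo is not known for any difference.

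NR5A2, also called LRH-1, belongs to the orphan nuclear receptors and contacts DNA as a monomer, at an extended half-site, TCAAGGTCA. In early mouse embryos it is a transcription factor of the cleavage stages, and in embryonic stem cells it is linked to pluripotency genes. Regulatory DNA outside a gene can be opened by the factors that bind it, and ATAC-seq reads that opening. The regions near Nr5a2 are listed as bound by the factor close to its own gene, and both knockouts were made to remove the factor. The binding signal comes from an earlier study, and the stage and cells of that assay are not given here. With no listed region inside the gene, the values cannot show the deletion itself.

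Nr5a2 is transcribed from the minus strand, so higher coordinates lie before its start. RefSeq gives the gene a pair of start sites, at 136960448 and 136953630. The 250 bases before each start are shown because they are the gene's own promoters and neither overlaps a listed region. The strand is minus, the build is GRCm38.p6 (the assembly of mm10), the source is RefSeq, and capitals mark the core nuclear receptor half-site AGGTCA on either strand. The windows are chr1:136960449-136960698 for the first start and chr1:136953631-136953880 for the second.
Nr5a2 start 1: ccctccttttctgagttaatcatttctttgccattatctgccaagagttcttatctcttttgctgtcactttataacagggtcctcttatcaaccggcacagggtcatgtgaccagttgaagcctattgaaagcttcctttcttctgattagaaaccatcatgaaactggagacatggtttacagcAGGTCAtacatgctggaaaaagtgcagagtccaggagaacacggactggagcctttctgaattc
Nr5a2 start 2: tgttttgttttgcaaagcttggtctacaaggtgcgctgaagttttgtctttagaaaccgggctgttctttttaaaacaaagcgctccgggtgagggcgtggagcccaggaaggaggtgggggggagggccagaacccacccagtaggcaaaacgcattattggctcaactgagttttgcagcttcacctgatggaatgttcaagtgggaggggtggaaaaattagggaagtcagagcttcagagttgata

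The full letters TCAAGGTCA, the shorter AAGGTCA and the variant AAGGTCG, searched on both strands, were in neither window. Among 32851 RefSeq promoter windows of the same length, 0.387% held TCAAGGTCA, 4.08% held AAGGTCA and 0.916% held AAGGTCG. Every TCAAGGTCA match also counts as AAGGTCA, and both contain AGGTCA. The core AGGTCA, added to the search after the sequences were seen, occurred once, beginning 64 bases before the first start, and 14.0% of all windows held it. The nearest listed region lay 12.2 kb from the first window and 19.0 kb from the second.

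The 9 regions formed a group of 4 before the start of Nr5a2 and a group of 5 beyond its other end, with none inside the gene. The upstream group spans 136972880 to 136985201, 12.4 to 24.3 kb from the gene. The downstream group spans 136754457 to 136775154, 67.4 to 87.9 kb from it. The 198 kb between the groups, which contains the whole 118 kb gene, held no listed region, a gap longer than 84.1% of those in the table. Such an empty gene is common in the table, since 941 of 1963 protein-coding genes at least as long (47.9%) had no region inside their span. No region overlapped an annotated gene of any kind. The only other annotated features in the window were 4 pseudogenes. By distance to the gene span, Nr5a2 was the nearest protein-coding gene of each region. Measured from the Nr5a2 span, Zfp281, a zinc-finger transcription factor gene, lay 212 kb away on the downstream side. Ptprc, the CD45 gene of blood cells, lay 1102 kb from that span on the other side. The downstream regions lie between Nr5a2 and Zfp281, and each is nearer to Zfp281 than to the Nr5a2 start site.

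The neighbourhood holds more NR5A2-bound regions than most. Within 100 kb of their spans, 90.8% of 21887 protein-coding genes had fewer than 9 regions, and the median gene had 2. Per 100 kb of window the density was 2.83 regions at Nr5a2, against a median of 0.964, and 81.5% of genes were below it. Of the 9 regions, 7 are classed by the authors as accessible (77.8%, against 48.5% of all regions), namely all 4 upstream and 3 of 5 downstream. The 2 regions classed as not accessible lie next to each other on the gene-facing edge of the downstream group. Below, the open regions and the closed pair are named by these classes and not by their values.

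The CUT&RUN signal was mostly higher before the start than beyond the other end. This antibody-directed cleavage readout of NR5A2, taken by the authors from an earlier study, was 6.42 to 9.46 RPKM in the 4 upstream regions. In the 5 downstream regions it was 3.13 to 6.91 RPKM, so the groups overlap only between 6.42 and 6.91 RPKM. The median over all 9 was 6.42 RPKM, against 4.15 RPKM over the whole table. The strongest signal, 9.46 RPKM, belonged to the region 19.4 kb before the start (136979662 to 136980010) and exceeded 92.3% of all regions. The weakest, 3.13 RPKM, belonged to an accessible region 202 kb beyond the start (136758657 to 136758911). Within the downstream group the most strongly bound regions were thus not the open ones, as the not accessible pair had 6.91 and 6.12 RPKM and the open trio 3.13 to 5.12 RPKM. All 9 regions have a summit that the authors moved to an Nr5a2 motif, as do 89.3% of all regions, by 1 to 225 bp with a median of 42 bp, against a median of 39 bp over the table.

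**Figure D1:**
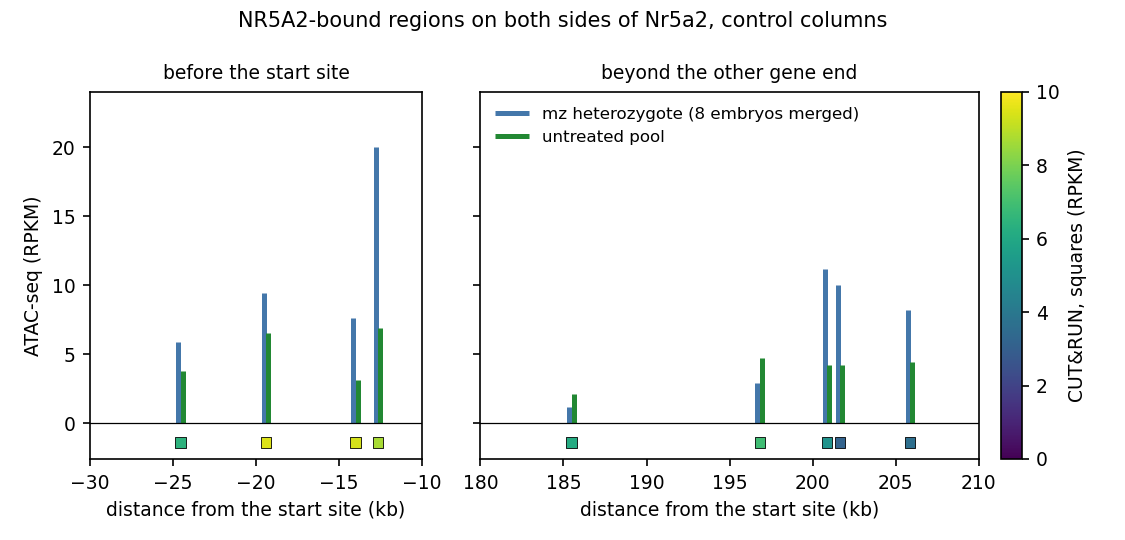
Bars give the ATAC-seq RPKM of the 9 regions in the merged heterozygote and the untreated pool, and squares are coloured by CUT&RUN RPKM, against distance in kb from the Nr5a2 start site (negative before it). The left group has 4 regions with CUT&RUN of 6.42 to 9.46 RPKM, and the tallest bar is the region 12.6 kb before the start.

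Depth sets how much the comparisons can show. Whole reads recovered from the RPKM steps came to 99826 and 109296 in the mz columns and 285671 and 190091 in the untreated and treated pools. The 9 regions held 130 heterozygote, 149 mz knockout, 245 untreated and 236 treated reads. No ratio of a single region is given where both of its columns hold 3 reads or fewer. This floor equals 1.76, 1.08, 0.490 and 0.510 RPKM in the columns, in the order above. Every interval below is an exact 95% interval for counting error only, and every test on reads compares merged libraries and not the conditions. In merged material, fewer cells with an open region and a partial opening in every cell cannot be told apart.

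In heterozygotes the upstream group contained the most open region of the neighbourhood, and knockouts kept it as the most open one. This region, 12.6 kb before the start (136972880 to 136973314), had 19.97 RPKM in heterozygotes (13.8 to 27.9), above 99.2% of the table, and 15.8 RPKM in mz knockouts (11.5 to 21.2), above 99.3% of it. Its authors' motif position lies 43 bp from the ATAC-seq summit, the closest of the 7 accessible regions. The neighbour 14.0 kb before the start (136974173 to 136974752) had 7.64 RPKM (4.07 to 13.1) in heterozygotes and 4.30 RPKM (2.22 to 7.52) in knockouts. Both regions were lower in the knockout column, with overlapping intervals.

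The outer pair of the upstream group differed least between the mz columns. The region 19.4 kb before the start, the one with the strongest CUT&RUN signal, had 9.40 RPKM (5.37 to 15.3) in heterozygotes and 8.61 RPKM (5.52 to 12.8) in knockouts. The region 24.6 kb before the start (136984796 to 136985201) had 5.87 RPKM (2.82 to 10.8) and 6.46 RPKM (3.83 to 10.2), and was the only one of the 9 with a higher value in knockouts. Together the 4 upstream regions had a ratio of summed RPKM, knockout over heterozygote, of 0.820 (0.599 to 1.12).

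The downstream group had lower knockout than heterozygote values in all 5 regions. The region 201 kb from the start (136759444 to 136759755) had the largest difference, with 11.2 RPKM (6.72 to 17.4) in heterozygotes and 4.66 RPKM (2.48 to 7.97) in knockouts, a ratio of 0.418 (0.190 to 0.892). By the exact binomial test its p was 0.0167 before adjustment and 0.227 after Benjamini-Hochberg adjustment over all 16958 regions. Its neighbour at 202 kb, with which it shares an ATAC-seq summit outside both regions, had 9.99 RPKM (5.82 to 16.0) in heterozygotes and 6.81 RPKM (4.10 to 10.6) in knockouts. The pair stands 0.533 kb apart, so some reads may belong to both of them.

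The remaining downstream regions were the outermost open one and the closed pair. The region at 206 kb (136754457 to 136754707) had 8.22 RPKM (4.50 to 13.8) and 5.38 RPKM (3.01 to 8.87). The not accessible region at 197 kb (136763547 to 136763732) had 2.94 RPKM (0.954 to 6.86) and 1.08 RPKM (0.222 to 3.14), which are 5 and 3 reads. The not accessible region at 185 kb (136774763 to 136775154) had 1.17 and 0.359 RPKM, 2 reads against 1, so no ratio is given for it. The 5 regions together had a ratio of 0.546 (0.367 to 0.811), and this interval overlaps that of the upstream group.

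Across all 9 regions the summed signal was 76.4 RPKM for heterozygotes against 53.4 RPKM for mz knockouts, a ratio of 0.700 (0.549 to 0.892). Over the whole table the ratio was 0.668, inside this interval. The knockout value was below the heterozygote value in 8 of 9 regions, against 64.3% of all regions and 74.8% of accessible ones. Among the 3304 regions with at least the heterozygote RPKM of the lowest open member, the share was 92.6% and the ratio 0.579. That set is picked by a column of the ratio, which favours lower knockout values. Among the 6125 regions picked in the same way by the untreated pool, the share was 76.9%. None of the 9 passed the exact binomial test at an adjusted p of 0.05, where 1.73% of the table was called lower and 0.0236% higher. At an unadjusted p under 0.05, 1 region was lower and 0 were higher, against 11.9% and 0.708% of the table. The median log2 ratio of RPKM + 1, a scale that shrinks changes of low regions, was −0.53 over the 9, −0.32 over all regions and −0.49 over all accessible regions.

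These reads could show only large losses. At the region 12.6 kb before the start, 22 knockout reads or fewer (7.89 RPKM, a ratio of 0.395) would have been called lower, and 44 were found. At the other accessible regions the ratio had to be at most 0.0611 to 0.225, depending on the region, to be called. The 2 not accessible regions could not have been called lower at any knockout value.

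**Figure D2:**
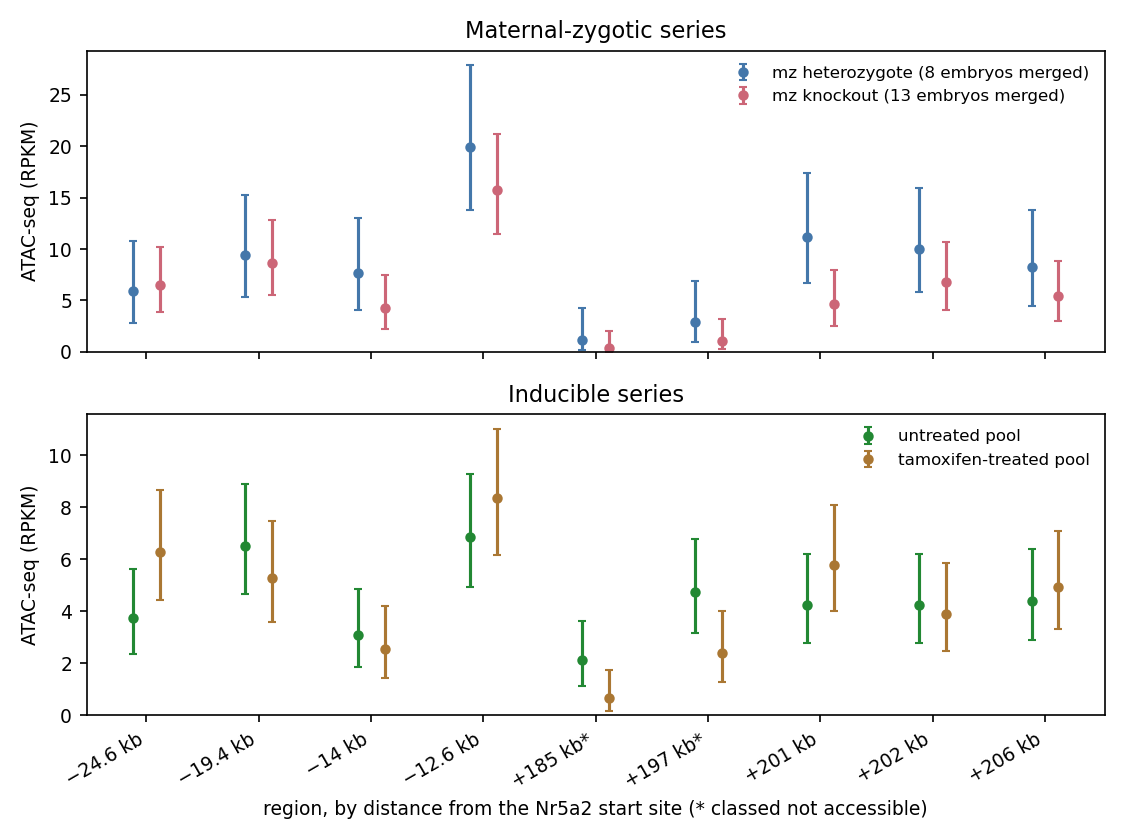
Points give ATAC-seq RPKM of each region with exact 95% Poisson intervals, in the mz columns (top) and the inducible pools (bottom), ordered by distance from the Nr5a2 start site. The heterozygote point is above the knockout point in 8 of 9 regions, and the treated point is above the untreated point in 4 of 9.

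The inducible series asks the same of embryos treated from the early 2-cell stage on. The 7 open regions around Nr5a2 had a treated over untreated ratio of summed RPKM of 1.12 (0.921 to 1.36). Over all 9 the summed signal was 39.99 RPKM untreated and 40.2 RPKM treated, a ratio of 1.00 (0.836 to 1.21). The ratio over the whole table was 0.694 and that over all accessible regions 0.692, both below this interval. Each arm is a single pool without a replicate, and effects of the drug and of the deletion cannot be told apart.

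The upstream regions split evenly. The region 12.6 kb before the start had 6.86 RPKM (4.94 to 9.27) untreated and 8.34 RPKM (6.17 to 11.02) treated. The region 24.6 kb before the start had 3.75 RPKM (2.38 to 5.63) and 6.30 RPKM (4.43 to 8.68), a ratio of 1.68 (0.971 to 2.96), with p = 0.0530 before and 0.251 after adjustment in the exact binomial test. It exceeded 74.2% of the table without treatment and 97.7% with it. The regions at 14.0 and 19.4 kb lay on the other side of 1. The former had 3.10 RPKM (1.87 to 4.84) untreated and 2.55 RPKM (1.43 to 4.21) treated. The latter had 6.53 RPKM (4.66 to 8.89) and 5.28 RPKM (3.58 to 7.49). The 4 regions together had a ratio of 1.11 (0.862 to 1.43), and the untreated and treated intervals overlapped at each of them.

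In the treated over untreated ratio the downstream group divided by the authors' accessibility class. Untreated values did not follow that class. The region at 197 kb, classed not accessible, stood highest of the group there, above 85.4% of the table. The 3 open regions had a ratio of 1.13 (0.826 to 1.56). At 201 kb the signal was 4.24 RPKM (2.77 to 6.22) untreated and 5.79 RPKM (4.01 to 8.08) treated. At 202 kb it was 4.24 and 3.91 RPKM, and at 206 kb 4.41 and 4.93 RPKM. The closed pair had lower values in the treated pool. The region at 197 kb had 4.73 RPKM (3.17 to 6.80) untreated and 2.38 RPKM (1.30 to 4.00) treated, with p = 0.0331 before and 0.196 after adjustment in the exact binomial test. The region at 185 kb had 2.12 RPKM (1.13 to 3.63) and 0.681 RPKM (0.185 to 1.74), with p = 0.0499 before and 0.243 after adjustment in the same exact test. Together the closed pair had a ratio of 0.447 (0.242 to 0.793), against 1.12 for the 7 open regions. Over the whole table the corresponding ratios were 0.698 and 0.692. The difference between the classes within the neighbourhood was not tested.

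Counted singly, none of the 9 regions passed the exact binomial test at an adjusted p of 0.05 in the inducible series, where 6.37% of the table was called lower and 0.0767% higher. At an unadjusted p under 0.05, 2 regions were lower, both of them classed not accessible, and 0 were higher, against 19.7% and 0.879% of the table. The treated value was above the untreated one in 4 of the 7 open regions, against 18.6% of all accessible regions. To be called lower in this series, a region needed a ratio of at most 0.0802 (at 185 kb) to 0.422 (at 12.6 kb). The 7 lay between the 62.9th and the 98.6th percentile of the log2 ratios of their class, as counted at or below each value. Their median log2 ratio was 0.13, against −0.42 over all accessible regions. The corresponding mz medians were −0.49 and −0.49.

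Several readings of the locus bear on how much these values depend on 1 region. With any 1 of the 9 regions left out, the inducible ratio lay between 0.935 and 1.07 and the mz ratio between 0.666 and 0.748. Regions at least as open in heterozygotes as the lowest open member (5.87 RPKM or more, 3304 regions) had an inducible ratio of 0.722 (0.716 to 0.729). Regions with at least the 3.10 RPKM of the lowest open member in the untreated pool (6125 regions) had a mz ratio of 0.652 (0.646 to 0.659). When the columns were scaled so that the ratio over the whole table was 1, the neighbourhood ratio became 1.05 (mz) and 1.45 (inducible). The region 24.6 kb before the start then had an adjusted p of 0.0699 in the inducible series (exact binomial test), and still none of the 9 was called, against 0.46% of the table lower and 0.218% higher.

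**Figure D3:**
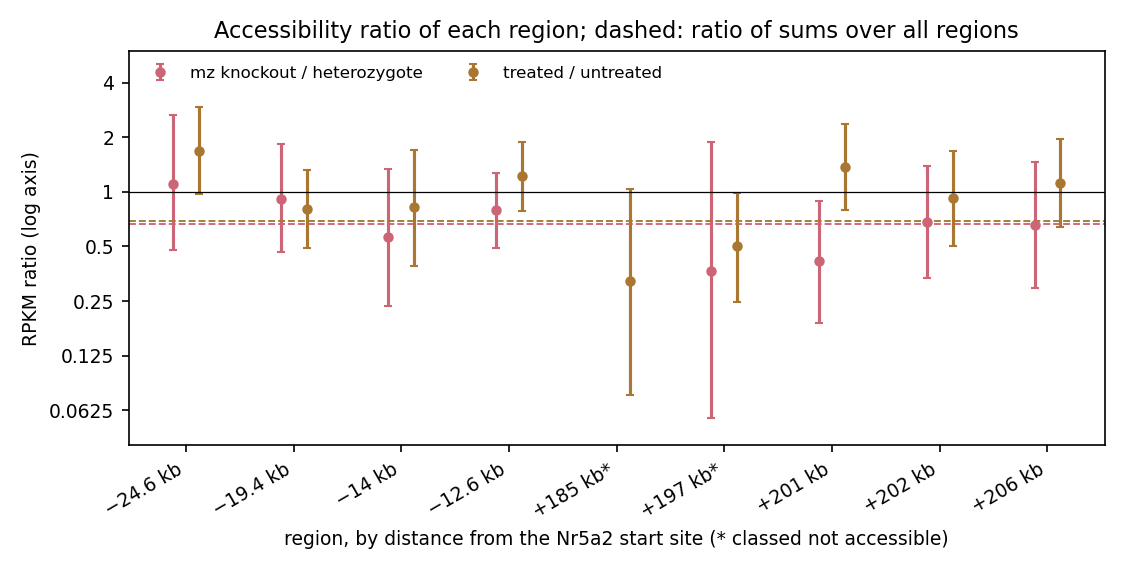
Points give the RPKM ratio of each region on a log axis with exact 95% intervals, for mz knockout over heterozygote and treated over untreated. Dashed lines mark the ratio of sums over all regions (0.668 and 0.694). The mz point of the region at 185 kb is left out because both values rest on 3 reads or fewer.

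The difference between the series kept its direction with any 1 region left out, but whether its interval included 0 depended on 1 region. Over all 9 regions the difference of the log2 ratios of summed RPKM, mz minus inducible, was −0.52 (−0.96 to −0.08), against −0.05 over the whole table. Without the region at 201 kb it was −0.36 (−0.83 to 0.11), an interval that includes 0. With any other region left out it lay between −0.64 and −0.49, with intervals below 0. The 7 open regions gave −0.64 (−1.10 to −0.18). No single region passed the exact test that compares the mz with the inducible ratio, with adjusted p of 0.991 or more at each of the 9, and 0.0177% of the table was called. The smallest unadjusted p, 0.00831 in that exact test, belonged to the region at 201 kb, where the mz ratio was 0.418 and the inducible ratio 1.36. At an unadjusted p under 0.05 it was the only one of the 9, and 4.41% of the table met this. The embryos of the series also differed in culture and in the date on their labels, which cannot be told apart from the way Nr5a2 was removed. The classes in the authors' deposited table, which a cut on the mean of both deposited ratios recovers for every region, call 7 of the 9 unchanged and 2 down, the closed pair, against 41.6% and 41.5% of all regions.

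**Figure D4:**
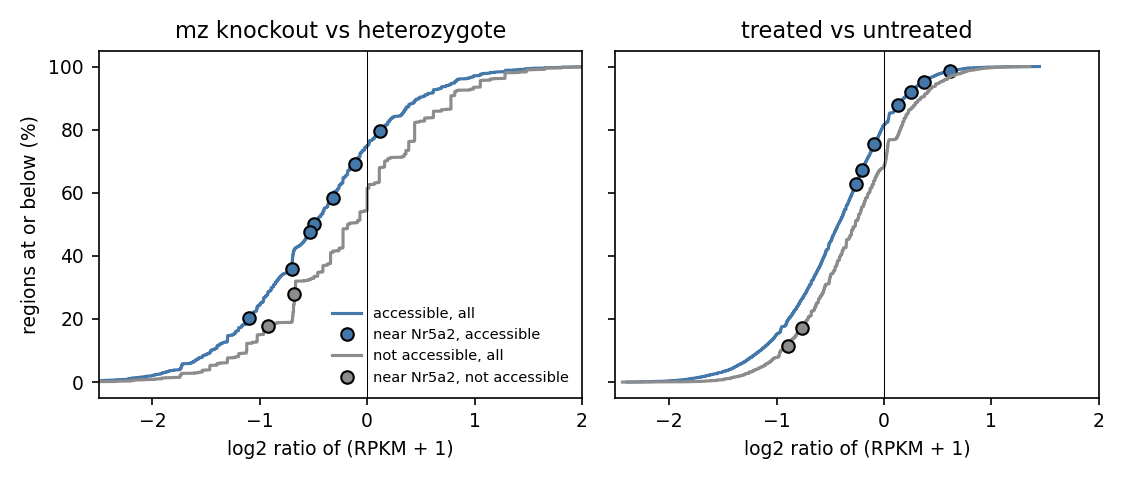
Curves give the cumulative share of all accessible and all not accessible regions by log2 ratio of (RPKM + 1), and points mark the 9 regions near Nr5a2 on the curve of their class. In the right panel the 7 accessible points lie between 62.9% and 98.6%, while in the left panel they lie between 20.2% and 79.6%.

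Among 6887 other gene neighbourhoods with at least 5 listed regions within 100 kb and none shared with Nr5a2, 94.4% had a lower inducible ratio and 54.9% a lower mz ratio. Their median ratios were 0.716 and 0.676. These neighbourhoods overlap and share regions, so the shares are descriptions of the table. The mean accessibility at Nr5a2 also stood high, above 97.9% of them in heterozygotes and 94.4% in the untreated pool. The closest neighbourhood in mean log2(RPKM + 1) over the 4 accessibility columns and CUT&RUN was that of Bcl2a1c, a gene of the mouse A1 family with near-identical copies, at a Euclidean distance of 0.168 over 6 regions. Next, tied at 0.198 over a single set of 5 regions that they share, came 4 genes. They were Pbxip1, which encodes a PBX-interacting protein, Pmvk, a mevalonate pathway kinase gene, Pygo2, which encodes a Wnt pathway coactivator, and Shc1, a signalling adaptor gene. The inducible ratios were 0.806 at Bcl2a1c and 0.805 for the shared set, both below the interval at Nr5a2. Those of the next like genes lay inside it. They were 0.881 at Palm, 0.854 at 4921528I07Rik, 0.899 at Gja1 and 0.882 at both Cyp2t4 and Egln2. Intervals for these genes were not computed. The distance uses the same columns as the ratio, so like genes were partly chosen by it.

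Other nuclear receptor genes and coregulators gave the family as a frame. Of 39 genes on this list 32 had listed regions within 100 kb, 167 regions in all. Over these regions the mz ratio was 0.694 (0.640 to 0.752) and the inducible ratio 0.696 (0.658 to 0.735). By the exact binomial test with adjustment over the table, 5 of the 167 were lower in the mz series (2.99%, against 1.73% of the table) and 0 higher. In the inducible series 13 were lower (7.78%, against 6.37% of the table) and 0 higher. Among the 77 accessible ones 6.49% were lower in the mz series, against 3.11% of all accessible regions. In the inducible series these shares were 14.3% and 10.4%. Whether the list differs from the table was not tested. Their median log2 ratios were −0.24 and −0.40. Nr5a1, which encodes steroidogenic factor 1, the closest relative of NR5A2, had 2 regions, both not accessible, and neither was called. Rarg, a retinoic acid receptor gene, had the most regions on the list, 17, with ratios of 0.882 and 0.880 and 1 region called lower, in the inducible series.

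The limit of 100 kb cut through the downstream side only. The innermost excluded region there, 107 kb from the gene (136735235 to 136735866), is accessible and had 2.35 RPKM in heterozygotes, 4.66 RPKM in mz knockouts, 4.08 RPKM untreated and 1.70 RPKM treated. The outermost included one, at 88.0 kb by midpoint, is the region at 206 kb from the start. On the upstream side the outermost included region lies 24.6 kb from the gene and the next listed one 1899 kb away.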

How the data were processed

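ATAC-seq libraries came from 23 samples, grouped by their titles. Per the submitters' processing notes, the tools were cutadapt, Bowtie2 and MACS2 and the build mm10, with no versions. The shifting of insertions, the handling of duplicates and the merging of embryos are not given in the sources used here, and duplicates left in would make the intervals too narrow. The authors deposited 1 table with 1 ATAC-seq RPKM value per group and region, a CUT&RUN RPKM value, summits and classes, and a ratio of knockout over control, which equals (knockout + 0.01)/(control + 0.01). In each column 100% of ATAC-seq RPKM values were multiples of 1 step within 0.0001, for short and long regions alike, so no division by the listed length had taken place. Reads were recovered by division. Values per embryo are not in the table, so the planned per-embryo tests were not run.

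A two-sided exact binomial test compared the reads of knockout and control in each region, allowing for depth, and p-values were adjusted (Benjamini-Hochberg) over 16958 regions at 0.05 with scipy 1.17.1. The series were compared by an exact noncentral hypergeometric test. Summed ratios have Clopper-Pearson intervals, conditional on the sum. On simulated data, 10% of regions lowered to 0.25-fold were called in the mz comparison and 22% in the inducible one. At 0.5-fold the shares were 0% and 2%. Genes came from RefSeq (GRCm38.p6), whose table has no exons. All member regions are named, and like genes were named by distance. The gene region, the lists and the tests were chosen with earlier results of these data known. No genome was used, so sequences of the regions are not shown.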

Additional observations from a re-analysis of the deposited data

How the results depend on the processing

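None of the 9 regions was called in either series under any of the 5 alternatives run for each (both scalings, a minimum of 10 reads, and limits of 50 or 200 kb). With the minimum of 10 reads, 7 of the 9 could be tested in the mz series. The mz neighbourhood ratio of 0.700 turned to 1.05 when the ratio of sums over all regions was scaled to 1. This scaling divides out the ratio of the whole table by construction. With only the regions beyond the gene's other end the mz ratio was 0.546. The inducible ratio of 1.00 moved to 1.28 with the median log2 ratio scaled to 0 and to 1.45 with the ratio of sums scaled to 1, also by construction. In each series the other 10 alternatives, among them the 3 pseudocounts, stayed within the counting interval. The difference between the series, −0.52, lay between −0.55 and −0.47 under both scalings and without the most accessible region, with intervals below 0. Its interval included 0 without the region at 201 kb, which shares a summit (−0.36), with only the upstream regions (−0.44) and with a limit of 200 kb (−0.36), and stayed below 0 with only the open (−0.64) or the downstream regions (−0.71). The splits by side, by shared summit and, for this difference, by accessibility and the limit of 200 kb were chosen after seeing the data. No paired analysis was possible because the columns hold merged groups, and for the same reason leaving out single embryos was not run. Depth limits every call: no single region of the 9 holds more than 49 reads in a column, and a spread between embryos was not measured.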

Other observations

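Between 100 and 200 kb from Nr5a2 the table lists 4 more regions, all on the downstream side. Their ratio of summed RPKM was 1.06 (0.540 to 2.15) in the mz series, on 15 heterozygote and 26 knockout reads, and 0.701 (0.449 to 1.08) in the inducible series, on 55 untreated and 37 treated reads. Of the 4 regions, 3 were lower in mz knockouts and 2 were lower in the treated pool, and 0 of the 4 were called by the exact binomial test. The intervals overlap those of the 9 regions in both series. The difference of the log2 ratios, mz minus inducible, was 0.59 over these 4 regions, opposite in sign to the −0.52 of the 9. No interval was computed for it.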
